A study of Mus musculus with 48 samples.

Results

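The kidney genes for collagens, laminins and other basement membrane and matrix proteins were followed over circadian time in mice given D-alanine or vehicle. Members were the protein-coding genes of both deposited tables whose symbols name a collagen chain, a laminin chain, a nidogen, a fibulin or a fibrillin, together with Npnt, Hspg2, Agrn, Fn1, Dcn, Lum, Bgn and Prelp. The choice used symbols and biotype and no measured value, and it found 71 of 49585 genes. The 48 libraries are kidney RNA of mice labelled WT in 12 groups of 4, namely vehicle and D-alanine at CT0, CT4, CT8, CT12, CT16 and CT20, where CT is circadian time in hours. D-alanine is the D-enantiomer of the amino acid alanine. The labels name no dose, route, strain, age or sex. The series text says that the kidneys came from different mice and that the experiment was done in 2 runs. The values stand in 2 tables of 24 libraries with 2 libraries of each group in each, here called the first and the second table and taken as those runs. Values are FPKM, fragments scaled to exon length and to the library's total. Comparisons of level between genes rest on the annotated exon length, and the length of the transcripts made was not measured.

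Basement membranes are thin sheets of matrix under epithelia and around vessels, built from a laminin network and a type IV collagen network that nidogens, perlecan and agrin hold together. In the kidney they form the filter of the glomerulus, where the alpha 3, alpha 4 and alpha 5 chains of type IV collagen and laminin with the alpha 5, beta 2 and gamma 1 chains are the mature forms, and they surround every tubule. Fibrillar collagens and small leucine-rich proteoglycans such as decorin and biglycan fill the interstitium between the tubules. Circadian clock factors bind short promoter elements, among them the E-box for CLOCK and BMAL1, the D-box for DBP and its relatives, and the element shared by the REV-ERB and ROR receptors.

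The type IV collagen genes lie in head-to-head pairs, so that a short stretch of DNA serves as the promoter of both chains, and 2 of these stretches are shown because both pairs were rhythmic. The first exons of Col4a1 and Col4a2 overlap by 22 bases on chromosome 8. The starts of Col4a3 and Col4a4 lie 72 bases apart on chromosome 1, and those of Col4a5 and Col4a6 1309 bases apart on the X chromosome. The windows below, from RefSeq with build GRCm38.p6, run 5′ to 3′ in the direction of the named gene, from 250 bases before its start to 50 after it. They are chr8:11312555-11312854 on the plus strand for Col4a2 and chr1:82586800-82587099 on the minus strand for Col4a4, and capitals mark the stretch from one start of the pair to the other.
Col4a2: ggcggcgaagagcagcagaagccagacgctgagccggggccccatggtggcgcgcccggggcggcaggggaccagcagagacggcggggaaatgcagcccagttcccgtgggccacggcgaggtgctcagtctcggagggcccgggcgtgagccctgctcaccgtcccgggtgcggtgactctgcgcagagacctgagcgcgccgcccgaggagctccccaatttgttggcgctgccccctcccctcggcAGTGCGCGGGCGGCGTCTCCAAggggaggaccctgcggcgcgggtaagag
Col4a4: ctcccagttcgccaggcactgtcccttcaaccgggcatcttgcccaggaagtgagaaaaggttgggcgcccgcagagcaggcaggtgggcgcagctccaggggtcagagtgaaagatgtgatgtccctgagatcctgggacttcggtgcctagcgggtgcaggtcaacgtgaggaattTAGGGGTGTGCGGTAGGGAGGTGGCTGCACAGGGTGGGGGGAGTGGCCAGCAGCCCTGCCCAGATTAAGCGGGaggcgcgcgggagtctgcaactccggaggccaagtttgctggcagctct

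Windows of this kind were found for 51 of the 71 members and searched on both strands for the E-box CACGTG, the D-box TTATGNAA and the REV-ERB and ROR element TAGGTCA. Over all 32817 windows of the table these letters occurred in 7.15%, 3.39% and 2.61%. Among the members, Fbln1 held 1 E-box, which lies at -81 from one of its listed starts and at -140 from the other. Col13a1 and Col4a6 held the D-box. A window of Fbln5 held TAGGTCA beginning 2 bases before the start of that window's transcript. The other listed window of Fbln5, at chr12:101819070-101819369, lies upstream and held none of the 3 motifs. Of the 20 rhythmic members with a window, 0 held the E-box, 0 the D-box and 1, Fbln5, the REV-ERB and ROR element. Fbln5 encodes fibulin 5, an elastic fibre protein. Its window with the match, at chr12:101818435-101818734 on the minus strand, is shown with that element in capitals. The window of Col27a1 at chr4:63215162-63215461 on the plus strand is shown as well. This gene had the widest rhythm on the log2(FPKM + 1) scale and a phase of its own, and its window held none of the 3 motifs. These matches describe letters in a window and not sites of binding.
Fbln5: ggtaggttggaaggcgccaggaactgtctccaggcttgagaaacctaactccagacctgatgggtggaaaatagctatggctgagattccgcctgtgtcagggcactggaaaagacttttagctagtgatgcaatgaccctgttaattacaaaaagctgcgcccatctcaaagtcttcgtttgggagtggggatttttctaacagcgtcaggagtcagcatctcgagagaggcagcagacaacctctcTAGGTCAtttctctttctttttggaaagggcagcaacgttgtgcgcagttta
Col27a1: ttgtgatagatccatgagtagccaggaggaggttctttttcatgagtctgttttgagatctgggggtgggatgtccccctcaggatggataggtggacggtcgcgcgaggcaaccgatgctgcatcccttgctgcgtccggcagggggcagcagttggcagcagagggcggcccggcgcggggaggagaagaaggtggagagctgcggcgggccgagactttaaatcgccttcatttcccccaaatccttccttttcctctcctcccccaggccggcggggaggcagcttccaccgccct

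The 10 members of highest level were 1 fibrillar collagen, 1 small leucine-rich proteoglycan and 8 genes of basement membranes and their zone. Col27a1, the chain of a fibrillar collagen best known from cartilage, had the highest mean at 36.5 FPKM ± 13.2 (SD, n = 48) and ranged from 16.7 to 70.1. The glomerular chain Col4a3 followed at 31.4 ± 8.33, biglycan (Bgn) at 30.1 ± 9.68 and the glomerular chain Col4a4 at 29.5 ± 6.69 FPKM. Agrin (Agrn) stood at 28.4 ± 7.17, and the endostatin precursor Col18a1 at 26.7 ± 8.996 FPKM. Lama5 reached 26.3 ± 6.81, nephronectin (Npnt), a ligand of integrin alpha 8 beta 1 in kidney development, 24.5 ± 8.54, and the ubiquitous type IV chains Col4a1 and Col4a2 21.3 ± 5.73 and 20.8 ± 4.32. The SDs run over all 48 libraries and so hold the effects of time and table. Of the members' summed FPKM, type IV collagens took 26.3% on average, laminins 16.6%, the linkers (Agrn, Npnt, Hspg2, Nid1 and Nid2) 16.5%, fibrillar collagens 12.6% and small leucine-rich proteoglycans 10.7%.

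Many members were at or near the limit of detection. Of the 71, 57 had fragments in every library and 14 were at 0 in at least 1. Col10a1, the collagen of hypertrophic cartilage, had 3 fragments over all 48 libraries, and the cartilage chain Col9a1 had 14. Col2a1, the main cartilage collagen, had 109. With the filter of 1 FPKM in at least 4 libraries, 49 members were tested and 22 were not, among them Lama2 (0.641 FPKM), Lama4 (0.644), Col8a1 (0.461) and Fbn2 (0.0149). Lama4, the laminin chain of vessels, and Lama2, best known from muscle, are thus not part of the tests below.

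**Figure D1:**
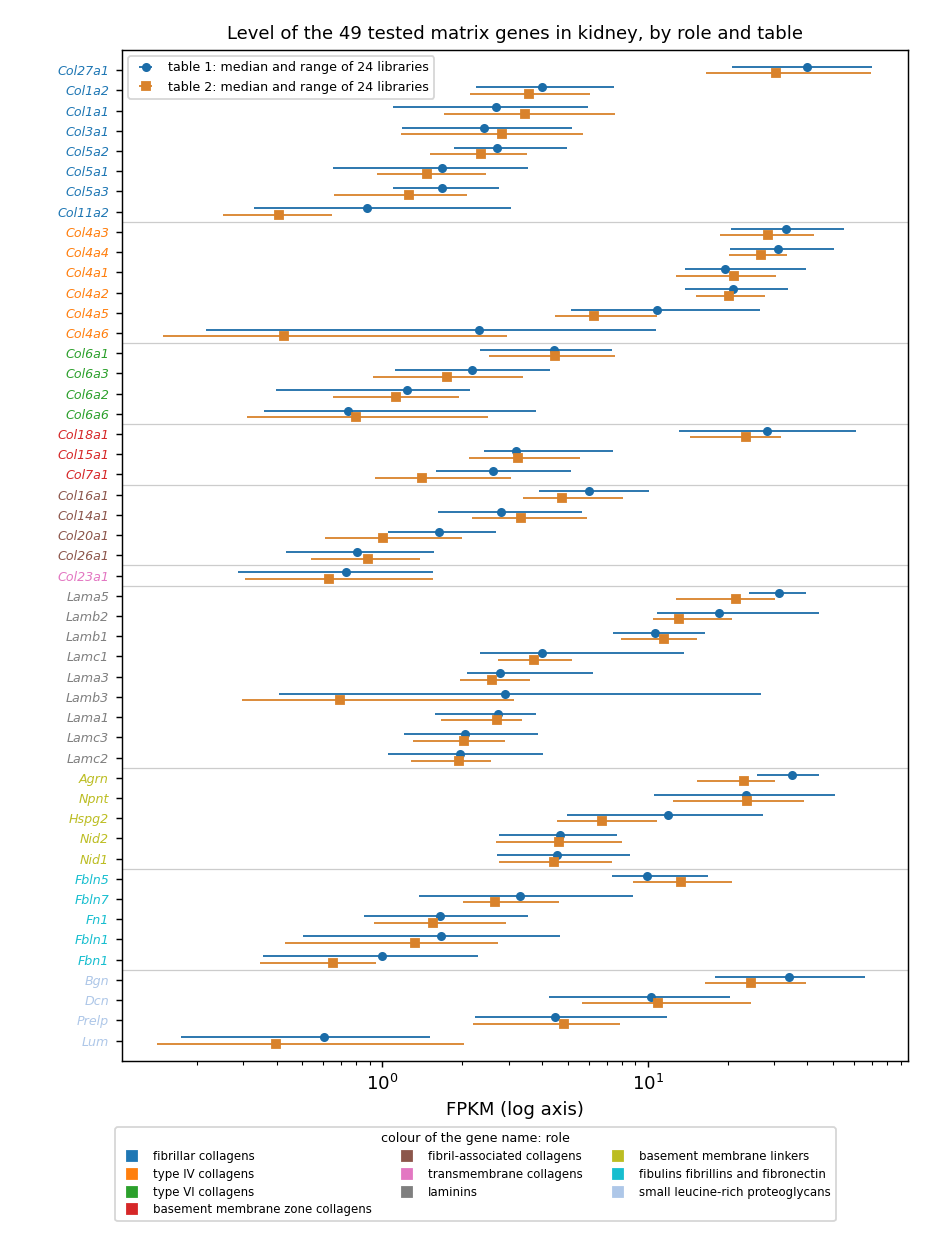
FPKM (log axis) of the 49 tested matrix genes, grouped by role; points are medians and lines run from the lowest to the highest of the 24 libraries of each table. Col27a1, Col4a3, Bgn and Col4a4 stand at the top, and Lamb3 and Col4a6 have the longest lines, reaching 26.8 and 10.8 FPKM in the first table.

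The comparison over time asked which matrix genes follow a 24 h cycle. A common cosine with a 24 h period was fitted to both treatments together, with treatment and table as terms, and 30 of 49 members passed an adjusted p of 0.05 (limma, Benjamini-Hochberg over 14922 genes), where 26.5% of all genes passed. On the log2(FPKM + 1) scale the swing was widest in Col27a1, Col6a6, Npnt, Col3a1, Col4a1 and Nid2. Their peak-to-trough folds on that scale were 2.17, 2.11, 2.03, 1.75, 1.66 and 1.64. This scale understates the swing of low genes such as Col6a6. Over the alternative fits the log2 amplitude ran from 0.452 to 1.15 in Col6a6 and from 0.477 to 0.647 in Col27a1. The median fold of the 30 members was 1.38, against 1.25 over all genes that passed. Most peaks fell around CT0: 21 of the 30 lay within 2 h of it (70%, against 26.9% of all genes that passed), 5 within 2 h of CT20, 2 of CT8, 1 of CT4, 1 of CT16 and 0 of CT12.

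Col27a1 peaked apart from the other members that passed. Over both treatments its lowest, median and highest values were 16.7, 21.5 and 43.5 FPKM at CT0 and 31.3, 50.6 and 70.1 at CT16 (n = 8 at each time). At CT12 all 8 libraries lay between 43.6 and 53.5, above all 8 of CT0, while CT0 and CT16 overlapped. The amplitude was 0.56 ± 0.06 log2 (SE) with a peak at CT14.5 (adjusted p = 7.01e-10 by limma). Its peak was at CT14.9 in the first table and CT14.1 in the second.

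**Figure D2:**
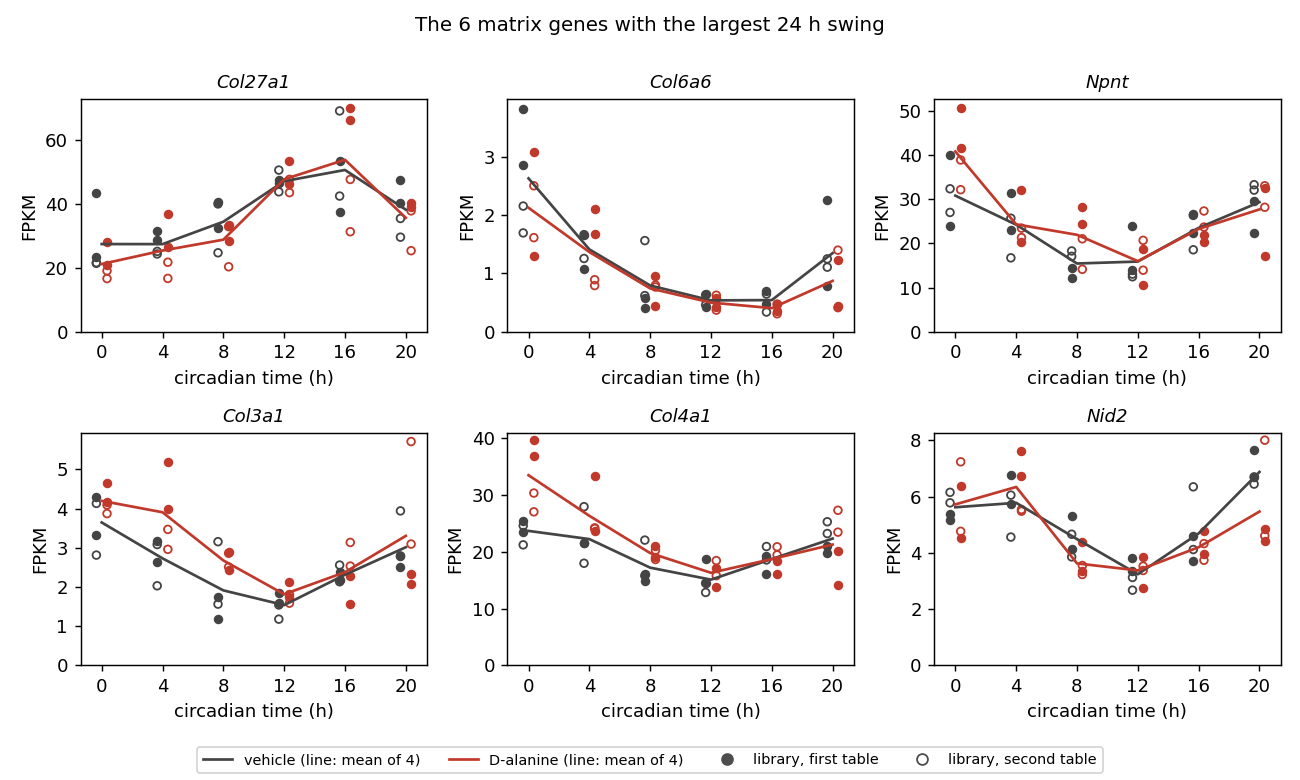
FPKM against circadian time (h) for the 6 matrix genes with the widest swing; points are single libraries, with the marker showing the table, and lines join the means of the 4 libraries of each treatment. Col27a1 is low at CT0 and high at CT12 to CT16, and the other 5 are high near CT0 and low at CT8 to CT16.

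Npnt fell from 23.9, 35.7 and 50.7 FPKM at CT0 to 10.5, 13.99 and 24.1 at CT12 (lowest, median, highest of 8). The highest library of CT12 lay just above the lowest of CT0. Its amplitude was 0.51 ± 0.07 with a peak at CT22.8 (adjusted p = 3.50e-07 by limma). Col6a6, a type VI collagen chain of low level, went from 1.31, 2.33 and 3.81 FPKM at CT0 to 0.308, 0.477 and 0.707 at CT16, and these ranges did not overlap. Its amplitude was 0.54 ± 0.06 with a peak at CT0.9 (adjusted p = 1.11e-08).

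Among type IV collagens 4 of 6 chains were rhythmic, and these were the members of the Col4a1-Col4a2 and Col4a3-Col4a4 pairs whose promoters are shown above. Col4a1 had 21.2, 26.2 and 39.6 FPKM at CT0 and 12.8, 15.1 and 18.6 at CT12, with no overlap, and its partner Col4a2 18.4, 23.4 and 33.9 at CT0 and 14.6, 16.5 and 18.99 at CT12. The highest library of Col4a2 at CT12 lay above its lowest at CT0. They peaked at CT0.4 and CT0.8. The glomerular chains Col4a3 and Col4a4 peaked earlier in the cycle, at CT21.3 and CT22.5, with folds of 1.52 and 1.35. Col4a3 was at 31.6, 40.7 and 55.1 FPKM at CT20 and 18.8, 22.4 and 40.9 at CT12, and these ranges overlapped. Col4a5 and Col4a6 did not pass.

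In the other groups, 6 of 8 fibrillar collagens passed: Col27a1 and the interstitial chains Col1a1, Col1a2, Col3a1, Col5a1 and Col5a2. Col3a1 fell from 2.81, 4.11 and 4.65 FPKM at CT0 to 1.18, 1.66 and 2.12 at CT12, without overlap. All 4 tested type VI chains passed, as did Col18a1 and Col15a1 of the basement membrane zone and Col14a1 of the fibril-associated collagens. Of 9 tested laminins 4 passed, Lamc3, Lamb1, Lama1 and Lama3, with folds of 1.20 to 1.32. Lama1, a laminin chain of tubular basement membranes, peaked at CT8.6 and Lama3 at CT6.1, apart from the CT0 group. Lama5, Lamb2 and Lamc1, the chains of the glomerular laminin, did not pass.

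Of the linkers, both nidogens and Npnt passed, while Agrn and Hspg2 (perlecan, adjusted p = 0.0958) did not. Nid2 had 4.42, 6.58 and 8.01 FPKM at CT20 and 2.67, 3.36 and 3.84 at CT12, without overlap. Its exons share 437 bases, 8.45% of their length, with the antisense gene Rtraf at 60.2 FPKM, and the sources name no strand setting, so reads of the pair cannot be told apart. Fbln5, Fbn1 and Fn1 passed among the fibulins, fibrillins and fibronectin (3 of 5 tested), and Prelp, Bgn and Dcn among the small leucine-rich proteoglycans (3 of 4). Dcn, at an adjusted p of 0.0488, was nearest to the threshold, and its call held in 20 of the 48 fits that left out 1 library and in 3 of 13 alternatives. The call of Lamb1 held in 35 of 48 and 5 of 13, and that of Lama3 in 38 of 48 and 8 of 13. That of Col6a2 held in 44 of 48 and 6 of 13, and that of Fn1 in 48 of 48 and 8 of 13.

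**Figure D3:**
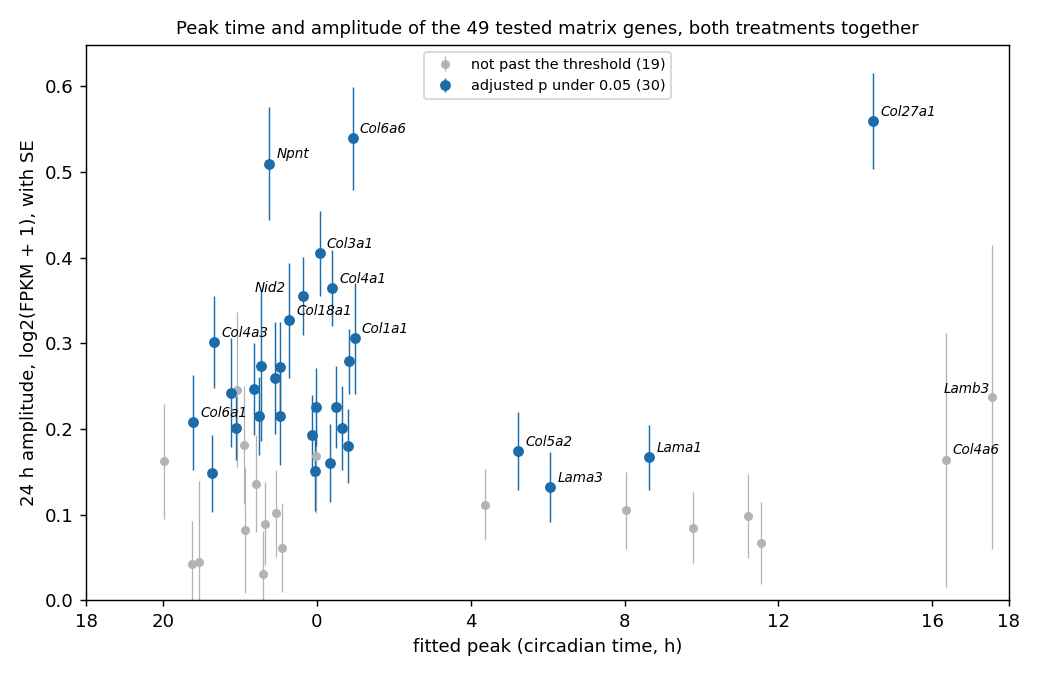
Fitted peak (circadian time, h, axis running from 18 through 0 to 18) against 24 h amplitude (log2, with SE) for the 49 tested matrix genes; blue points passed an adjusted p of 0.05. Most blue points lie between CT20 and CT1, Col5a2, Lama3 and Lama1 lie between CT5 and CT9, and Col27a1 stands alone at CT14.5.

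The times of the peaks moved with the table. The 30 rhythmic members peaked earlier in the second table in 28 cases, by a median of 2.16 h (all genes that passed: 67.3% earlier, median 1.22 h). Within the first table alone 16 of the 30 passed, within the second alone 21, and 24 had an unadjusted p under 0.05 in each. Some markers of other cells also followed time. Of 6 red blood cell markers 5 were rhythmic, where 26.5% of all genes were, and their summed FPKM averaged 316 at CT0 and 193 at CT12. Also rhythmic were 4 of 8 endothelial, 4 of 8 podocyte and 3 of 8 fibroblast and pericyte markers. In the other lists the counts ran from 0 of 8 urothelial and 0 of 7 adipose to 3 of 8 proximal tubule markers. In RNA of a tissue, fewer cells of a type and less RNA per cell cannot be told apart, and the part of cell makeup in the rhythms was not tested beyond the following fit. The summed FPKM of 11 inner medulla and papilla markers averaged 797 at CT0, 257 at CT4 and 389 at CT8. At CT12, CT16 and CT20 it averaged 345, 534 and 445, and 1 of the 10 tested was rhythmic. With the score of these markers in the model 27 of the 30 members still passed, all but Col6a2, Dcn and Lama3, and 20 of the 21 with a peak near CT0 kept it there. In that fit 5 further members passed, and the share of all genes that passed went from 26.5% to 32.8%. The 5 were Col4a6 (adjusted p = 0.000625 by limma), Fbln7 (0.00104), Col4a5 (0.00323), Hspg2 (0.00932) and Agrn (0.0209).

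Each treatment was then fitted with a cosine of its own to ask whether D-alanine changed the rhythm. In vehicle 17 of 49 members passed, where 9.77% of all genes did, and in D-alanine 16, where 8.3% did. Both lists shared 13 members: Col14a1, Col18a1, Col27a1, Col3a1, Col4a1, Col4a2, Col4a3, Col6a6, Fbln5, Lamc3, Nid1, Nid2 and Npnt. No member and 0 of all 14922 genes passed the test of the difference between the rhythms (limma), and 3 members had an unadjusted p under 0.05, where 2.37% of all genes did. These were Nid1, Fbln5 and Fn1, with unadjusted limma values of 0.00228, 0.0135 and 0.0223. The fitted peak of Nid1 was at CT20.8 under vehicle and at CT1.2 under D-alanine, with folds of 1.56 and 1.58. All 13 shared members peaked later in D-alanine, by 0.0700 to 4.38 h and a median of 1.90 h, while 69.8% of the 736 genes rhythmic under both did so, by a median of 0.61 h. Of the 13, 11 were later within the first table (median 2.71 h) and 9 within the second (median 0.42 h).

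The comparison of D-alanine with vehicle asked which matrix genes change level with the treatment. Averaged over the 6 times, 1 of 49 members rose, Prelp, and 0 fell, where 1.74% of all genes passed, 1.59% rose and 0.147% fell. Prelp encodes prolargin, a small leucine-rich proteoglycan that binds collagen and perlecan. The lowest, median and highest values were 2.19, 4.26 and 8.22 FPKM in the 24 vehicle libraries and 3.15, 5.22 and 11.9 in the 24 D-alanine libraries. These ranges overlapped widely, and D-alanine was higher in 11 of 12 pairs of time and table. The difference was 0.35 ± 0.08 log2 (SE, adjusted p = 0.0243 by limma). It was widest at CT8, where the D-alanine libraries held 7.68, 6.83, 4.33 and 5.15 FPKM and the vehicle libraries 2.24, 2.46, 5.14 and 2.31, so that 1 vehicle library stood among the D-alanine values. The call ended after quantile normalization (adjusted p = 0.0961), after median centring (0.0740), without mitochondrial genes (0.0739), without the table term (0.0620), in the first (0.620) or second (0.154) table alone and with the adipose score as a covariate (0.109), with differences of 0.28 to 0.41. It held when each of the 48 libraries was left out in turn (adjusted p of 0.00878 to 0.0459).

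Other members stood above vehicle without passing. The difference was above 0 in 42 of 49 members (76.3% of all genes), with a median of 0.128 log2 against 0.056 over all genes. Both moved with the scaling: the medians were 0.182 and 0.106 after rescaling to TPM, where 15 of 56 tested members rose, and 0.059 and -0.013 after median centring, where 0 did. Over all genes 237 rose and 22 fell, against 2449 and 30 with TPM, 3 and 20 after median centring and 3 and 11 after quantile normalization. In the FPKM as deposited, 16 members (32.7%) had an unadjusted p under 0.05 with D-alanine higher, where 19.3% of all genes did. The next in order of p were the fibulin Fbln7 (0.27 ± 0.09, adjusted p = 0.0840), fibrillin 1 (Fbn1, 0.18 ± 0.06, 0.0895) and Col14a1 (0.19 ± 0.07, 0.110). Fbln7 held 1.38, 2.60 and 5.45 FPKM in vehicle and 1.999, 3.36 and 8.805 in D-alanine, lowest, median and highest. Fbln5 differed by -0.0216 in the first table and 0.36 in the second. The widest differences belonged to Lamb3 (0.43 ± 0.24, adjusted p = 0.303) and Col4a6 (0.35 ± 0.20, adjusted p = 0.317), whose libraries scattered most, and to decorin (Dcn, 0.30 ± 0.12, adjusted p = 0.161). Both rhythmic genes with the widest swing lay on the other side, Col6a6 at -0.13 ± 0.08 and Col27a1 at -0.12 ± 0.08.

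**Figure D4:**
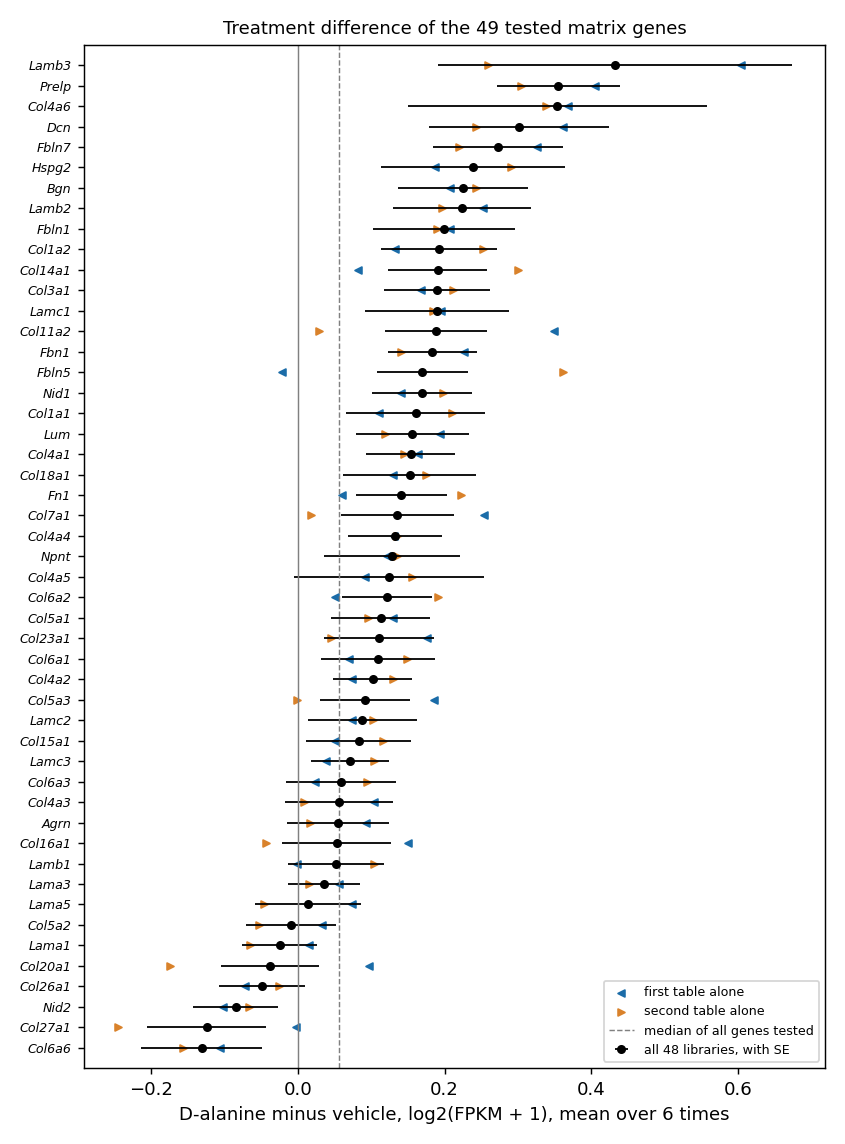
D-alanine minus vehicle, mean over 6 times, log2(FPKM + 1) for the 49 tested matrix genes; black points with SE use all 48 libraries, triangles use 1 table alone, and the dashed line is the median of all genes tested. Of the black points 42 of 49 lie to the right of 0, and Prelp, second from the top, is the gene that passed.

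No member passed at any single time (limma), where 1.14% of all genes passed at CT0 and 0% at each other time. At CT8, 19 members had an unadjusted p under 0.05 and all 19 were higher in D-alanine, where 13.6% of all genes were; the smallest adjusted p was 0.272. At CT0 it was 14 members (22% of all genes, both directions), led by Col4a1 (0.47 ± 0.15, adjusted p = 0.0784), at CT4 4 (2.55%), at CT20 2 (2.57%), and at CT12 (2.27%) and CT16 (4.74%) 0. For the treatment by time interaction 0 members passed and 1 had an unadjusted p under 0.05 (0% and 3.53% of all genes). Between the tables the treatment difference itself differed in 0 members by the interaction test, and 3 had an unadjusted p under 0.05 (0% and 3.84% of all genes). Marker levels were read beside these genes, and 0 markers of the lists named here passed for D-alanine. The score of the inner medulla markers averaged 0.106 in D-alanine and -0.106 in vehicle, and their summed FPKM ran from 104 over a median of 199 to 1121 in vehicle and from 93.5 over 359 to 3270 in D-alanine. Adipose markers summed to 19.7 to 56.7 FPKM in vehicle (median 26.5) and 15.5 to 113 in D-alanine (median 28.6); 6 of 7 tested had an unadjusted p under 0.05 (20.5% of all genes) and 0 passed, and Adipoq, a defining marker, averaged 0.095 and 0.679 FPKM. Endothelial markers summed to 51.4 to 116 FPKM in vehicle and 57.2 to 186 in D-alanine, with 7 of 8 at an unadjusted p under 0.05 (20.5% of all genes) and 0 passed. Of the summed FPKM in the first table, mitochondrially encoded genes made up 41.4% ± 3.38 under vehicle and 37.4% ± 4.33 under D-alanine; for the second table these shares were 19.9% ± 1.95 and 17.0% ± 1.36 (SD, n = 12 each). With the inner medulla score in the model Prelp still passed (0.28, adjusted p = 0.0160) and the members' median difference was 0.082; the part of the other measures was not tested beyond the fits named above.

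The tables themselves differed in matrix level. Of 49 members 22 were lower and 2 higher in the second than in the first, where 64% of all genes passed, 41% higher and 23% lower. The sources do not say whether both were scaled alike. After rescaling without mitochondrial genes 44 of 50 tested members were lower and 0 higher, where 7649 of all genes were lower and 2558 higher. The median over all genes went from 0.068 to -0.150 log2. Rescaled to TPM 17 of 56 tested members were lower and 9 higher, where 2422 of all genes were lower and 8122 higher. The widest differences were those of Lamb3 (-1.04 ± 0.24), Col4a6 (-0.94 ± 0.20), Col4a5 (-0.63 ± 0.13), Hspg2 (-0.60 ± 0.13), Lama5 (-0.58 ± 0.07), Agrn (-0.53 ± 0.07) and Col7a1 (-0.52 ± 0.08), the anchoring fibril collagen. Fbln5 (0.30 ± 0.06) and Col14a1 (0.16 ± 0.07, which turned to -0.0622 without mitochondrial genes) were higher.

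Lamb3, the beta 3 chain of an epithelial laminin, ranged from 0.297 to 26.8 FPKM and reached 1 FPKM in 21 of 48 libraries. Its median was highest at CT16, at 2.91 FPKM (0.411 to 7.73). In the first table it reached 10.2, 6.92 and 3.71 FPKM in single vehicle libraries of CT0, CT12 and CT20, whose partners of the same table held 0.896, 0.813 and 0.772. The D-alanine libraries of CT0 in that table held 7.35 and 26.8, while in the second table they held 0.530 and 0.297. Col4a6 followed the same libraries, with 5.08 and 0.596 in vehicle CT0 and 5.63 and 10.8 in D-alanine CT0 of the first table. Over 48 libraries the score of the inner medulla and papilla markers, the mean of their standardised log2 values, correlated with Col4a6 (Pearson r = 0.932, Spearman rho = 0.918), Lamb3 (0.914, 0.860), Col4a5 (0.898, 0.878), Hspg2 (0.895, 0.864), Lamb2 (0.855, 0.813) and Lamc1 (0.827, 0.789). Each had a two-sided permutation p of 1e-05, the smallest that 100000 resamples can give, and an adjusted p of 2.33e-05 over 49 members. Within the tables r was 0.946 and 0.841 for Col4a6 and 0.944 and 0.762 for Lamb3, and without the 2 libraries farthest from the median 0.917 and 0.901. An r above 0.8 was found for 6 members and for 4.60% of all genes. Col27a1 (r = 0.039), Nid2 (0.041) and Col6a6 (-0.051) did not follow the score, and Lama1 ran against it (r = -0.529).

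The inner medulla markers summed to a mean of 693 FPKM in the first table and 229 in the second, and the urothelial markers to 141 and 40.2. Markers of the proximal tubule, the main cell of the cortex, summed to 3430 and 4180. Of these 8 markers 5 were higher and 2 lower in the second table, where 41% of all genes were higher and 23% lower. All these sums are FPKM, of which mitochondrial genes held a smaller share in the second table. With the inner medulla score in the model 20 members differed between the tables, 13 lower and 7 higher, where 60.2% of all genes did. The differences of Lamb3 and Col4a6 came to -0.23 (adjusted p = 0.102 by limma) and -0.22 (0.0155). The labels do not say which part of each kidney was taken. The part of sampling in these differences was not tested beyond that fit.

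**Figure D5:**
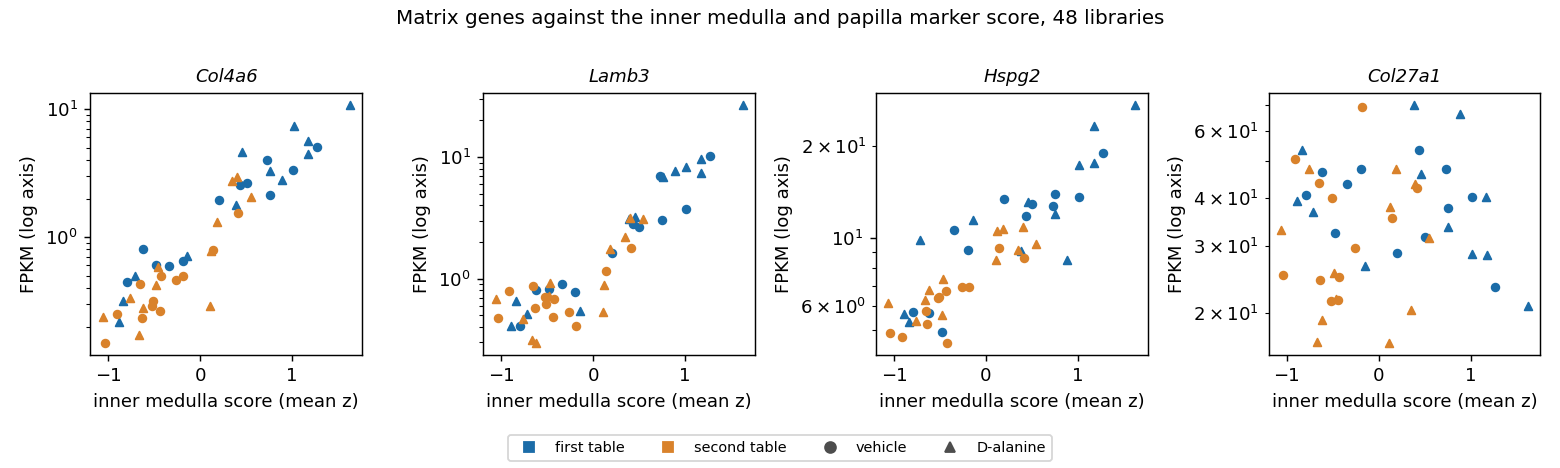
FPKM (log axis) of matrix genes against the inner medulla and papilla marker score (mean z) in 48 libraries, with colours for the table and shapes for the treatment. Lamb3 and Col4a6 climb with the score in both tables, and Col27a1 shows no slope (r = 0.039).

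Related matrix genes, most of them chains of 1 molecule, were compared in 11 pairs over the 48 libraries, which differ in time, treatment and table. The closest were Col4a5-Col4a6 (Pearson r = 0.953, Spearman rho = 0.929), Col4a3-Col4a4 (0.873, 0.882), Col4a1-Col4a2 (0.859, 0.872) and Col1a1-Col3a1 (0.858, 0.888), then Col6a1-Col6a3 (0.815, 0.791) and Col6a1-Col6a2 (0.815, 0.781). Each had a two-sided permutation p of 1e-05, the smallest these resamples can give, and an adjusted p of 1.22e-05. Among the 14922 genes tested, Col4a3 and Col4a4 were each other's closest gene, as were Col1a1 and Col3a1, while for Col4a2 its partner came second. Without the 2 libraries farthest from the median, r was 0.936, 0.850, 0.868 and 0.842 for the first 4 pairs. Within the tables it was 0.953 and 0.867 for Col4a5-Col4a6, 0.868 and 0.857 for Col4a3-Col4a4, 0.860 and 0.910 for Col4a1-Col4a2, and 0.820 and 0.903 for Col1a1-Col3a1.

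For the levels per length, the median ratio of Col4a1 to Col4a2 was 1.003 (0.772 to 1.65 over the libraries), and that of Col4a3 to Col4a4 was 1.014 (0.784 to 1.35). Col4a5 stood at a median of 11.2 times Col4a6, from 2.46 to 40.3, and Col6a1 at 3.98 times Col6a2. The annotated exons hold 4380 bases for Col6a1 and 8326 for Col6a2, whose median fragments were 219 and 109.5. Type I collagen is made of more alpha 1 than alpha 2 chains, and the median ratio of Col1a1 to Col1a2 was 0.805 with r = 0.695 (rho = 0.6997). The annotated exons of Col1a1 and Col1a2 hold 6563 and 12426 bases. The length of the transcripts made was not measured, so these ratios are not ratios of molecules. The laminin chains were less alike: Lamb2-Lamc1 had r = 0.771 (rho = 0.601), with 0.905 in the first table and 0.443 in the second. Lama5-Lamc1 had r = 0.327 (rho = 0.231, adjusted permutation p = 0.0223 for r and 0.113 for rho) and 0.109 within the second table, and Lamc1-Nid1 had r = 0.410 (rho = 0.436, adjusted permutation p = 0.00378). Dcn-Lum, a pair of proteoglycans of collagen fibrils, had r = 0.659 (rho = 0.686). The adjusted permutation p of Col1a1-Col1a2, Lamb2-Lamc1 and Dcn-Lum was 1.22e-05.

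Genes that process, bind, cut or regulate this matrix were read from 5 lists of 99 tested genes. Averaged over the times 0 of them passed for D-alanine, where 1.74% of all genes did. In the lists for collagen processing and crosslinking, matrix receptors, breakdown and its inhibitors, other matrix proteins and the TGF beta pathway, 11 of 24, 4 of 19, 3 of 13, 6 of 29 and 5 of 14 had an unadjusted p under 0.05, where 20.5% of all genes did. The smallest adjusted p belonged to Tgm2, a crosslinking transglutaminase (0.16 ± 0.05, adjusted p = 0.0598), the lysyl hydroxylase Plod1 (0.13 ± 0.04, 0.0633) and the TGF beta mediator Smad2 (0.20 ± 0.06, 0.0689). The matricellular gene Thbs2 (0.16 ± 0.05, 0.0855), the integrin chain Itgb5 (0.25 ± 0.09, 0.116) and the collagen-cutting protease gene Ctsk (0.26 ± 0.09, 0.102) led their lists.

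For the common rhythm 39 of the 99 passed, where 26.5% of all genes did: 11 of 24 processing genes, 7 of 19 receptors, 6 of 13 breakdown genes, 9 of 29 other matrix genes and 6 of 14 TGF beta genes. The collagen chaperone Serpinh1 (fold 1.59, peak CT21.4), the lysyl hydroxylase Plod2 (1.59, CT22.9) and the prolyl hydroxylases P4ha1 (1.57, CT21.0) and P4ha2 (1.42, CT19.6) passed with peaks from CT19.6 to CT22.9. The laminin-binding integrin chain Itga6 had a fold of 1.82 with a peak at CT21.5, Itgb6 1.74 at CT0.7 and Itga8, the nephronectin receptor chain, 1.46 at CT3.4. Adamts1 (1.68, CT19.9), Mmp14 (1.55, CT2.6) and Mmp2 (1.39, CT1.9) passed among the proteases. Ctgf (1.65, CT17.2) and Skil (1.54, CT20.5), targets of TGF beta signalling, passed as well, as did the laminin-binding Ntn4 (1.34, CT1.5).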

How the data were processed

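Per the labels' protocols, RNA was column-purified from kidney and SMARTER mRNA libraries were made. The authors deposited FPKM values for 49585 genes. Per the submitters' processing notes the genome build is GRCm38 (mm10). Aligner, counter and strand setting: not given in the sources used here. FPKM divides by the library total, so abundant transcripts can shift all others. Depth, recovered from the steps of low values, was 7626057 to 14403231 fragments per library (at least 99.8% of low values in genes with 1 transcript were whole within 0.05).

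The test was limma (version 3.58.1, R version 4.3.3; empirical Bayes with a trend) on log2(FPKM + 1). It used the 14922 genes that reached 1 FPKM in 4 or more libraries. The model held 12 groups and the table as a term; rhythms were 24 h cosines. P-values were two-sided and adjusted by Benjamini-Hochberg over all genes at 0.05. The log scale understates changes of low genes. Correlations used 100000 permutations (scipy 1.17.1 in Python 3.11.15). Scripts were tested on simulated data. Alternatives changed the pseudocount to 0.1, the filter, the scaling, the table term, the libraries and covariates, and left out each library.

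The members, gene lists and tests were chosen with earlier results of these data known. Any member could be named; full statistics went to members past a threshold, the 5 with the widest treatment difference, the 5 with the widest rhythm, the 10 of highest level and the chain pairs, and from each other list to up to 4 genes with the smallest p. Some podocyte markers are not reported here by name. Replicates were numbered in sample order and pair nothing.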

Additional observations from a re-analysis of the deposited data

Results flagged for a closer look

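Each group of 4 libraries was checked for a value far from the other 3 in 8 members, 96 groups in all, and 13 stood out; chance alone marks about 1 group in 20. Lamb3 and Col4a6 were put among the 8 after their values were seen. Values are FPKM.

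Lamb3 stood out in 3 groups and Col4a6 in 4, always with 1 high library of the first table. Vehicle CT0 replicate 1 held 10.2 for Lamb3 (others up to 0.896) and 5.08 for Col4a6 (others up to 0.596). Vehicle CT12 replicate 1 held 6.92 (others up to 0.864) and 3.97 (up to 0.806), and D-alanine CT20 replicate 2 held 9.64 (up to 0.893) and 4.43 (up to 0.785). Vehicle CT20 replicate 1 held 3.31 for Col4a6 (others up to 0.786). The inner medulla score of these 4 libraries was 1.27, 0.730, 1.17 and 1.011, the highest of their groups. Vehicle CT12 replicate 1 also held 24.1 for Npnt (others 12.5 to 14.03).

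Prelp was high in vehicle CT8 replicate 3, with 5.14 (others 2.24 to 2.46), and low in D-alanine CT20 replicate 1, with 3.15 (others 5.68 to 6.05). Col27a1 was high in vehicle CT0 replicate 2, with 43.5 (others 21.4 to 23.3), and low in D-alanine CT20 replicate 4, with 25.4 (others 37.9 to 40.3). Col4a1 was high in D-alanine CT4 replicate 2, with 33.4 (others 23.7 to 24.2).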

How the results depend on the processing

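No paired analysis was possible because the labels give the libraries no replicate numbers. The count of members that passed for D-alanine over all times, 1 in the text, was 15 of 56 tested with TPM and 0 after quantile normalization, after median centring, without mitochondrial genes, without the table term, in the first table alone and with the adipose score; in the second table alone it was 1, and that gene was Fbln5. At CT0 the count went from 0 to 11 with TPM, and the share of all genes in that fit is not given here. The other matrix genes that passed over all times went from 0 to 21 with TPM and 1 without the filter. Over all genes 2449 rose and 30 fell with TPM, against 237 and 22 in the text. For the table, 24 became 44 without mitochondrial genes, where 7649 of all genes were lower and 2558 higher. For the vehicle rhythm, 17 became 11 without the table term, 2 in the first table, 7 in the second and 7 with times as a factor. For the D-alanine rhythm, 16 became 9 in the first table, 8 in the second and 29 with the inner medulla score. With that score the share of all genes that passed for the D-alanine rhythm went from 8.30% to 16.7%. For the common rhythm, 30 became 18 in the first table. The rhythmic other matrix genes, 39, became 25 without the table term and 23 in the first table. Fewer libraries enter the fits of single tables; for the rest the cause was not tested. The r of Lama5-Lamc1 was 0.227 after median centring and 0.109 in the second table, and that of Lamc1-Nid1 0.196 and 0.341, with adjusted permutation p above the threshold. Directions turned for Fbln5 under D-alanine in the first table (-0.0216), and for the table difference of Col14a1 without mitochondrial genes (-0.0622) and of Col18a1 (0.0474) and Fbln7 (0.0670) with the inner medulla score. Leaving out single libraries gave 1 to 2 members for D-alanine (2 without vehicle CT0 replicate 1 or D-alanine CT20 replicate 1), 0 to 4 at CT0 (4 without vehicle CT0 replicate 1, 3 without D-alanine CT0 replicate 4), 22 to 25 for the table, 12 to 19, 11 to 21 and 27 to 33 for the vehicle, D-alanine and common rhythms, and 0 to 6 other matrix genes for D-alanine (6 without D-alanine CT20 replicate 1, 4 without vehicle CT12 replicate 1). A fit of limma voom on fragments recovered from the FPKM steps, chosen after seeing the data, gave 1, 25, 19, 17 and 31 members for D-alanine, the table and the 3 rhythms. At these depths a member such as Lum (0.607 FPKM) or Fbn1 (a median of 98.5 fragments) is measured with wide counting error.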

Other observations

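Podocytes make the chains Col4a3 and Col4a4, and their own markers were read beside them. The cytoskeletal gene Synpo was rhythmic with a fold of 1.56 and a peak at CT23.7. Podxl followed with 1.31 at CT22.6 and the transcription factor gene Wt1 with 1.27 at CT22.8. The slit diaphragm gene Nphs1 (1.05) did not pass. None of the 8 markers passed for D-alanine by limma, and 1 had an unadjusted p under 0.05. Over the 48 libraries Col4a3 and Col4a4 also followed the inner medulla score (Pearson r = 0.641 and 0.782). An r above 0.5 was found for 23 members and for 18.2% of all genes. Which cells made the transcripts of these chains was not tested.

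Markers of the remaining cell types were measured in the same fits. For D-alanine 0 genes of any marker list passed. For the common rhythm 26.5% of all genes passed. Of the markers tested, 2 of 6 smooth muscle, 3 of 8 proximal tubule, 1 of 5 thick limb and distal tubule and 1 of 6 collecting duct passed. The counts were 1 of 10 for inner medulla, 0 of 8 for urothelial and 2 of 6 for macrophage markers. They were 0 of 2 for lymphocyte, 1 of 4 for mesothelial and 0 of 7 for adipose markers. The pericyte receptor Pdgfrb had a fold of 1.46 with a peak at CT0.6, and the adventitial fibroblast gene Pi16 1.47 at CT21.2.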
